A study of Mus musculus with 9 samples.

Results

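The enzymes of glycolysis, the pentose phosphate pathway and the hexosamine pathway were examined as a set of 35 genes in mouse embryos at the 2-cell stage. The genes were taken from a list of symbols, and all 35 were found among the 24454 genes of the count table. The rule used no measured value, but the list was chosen with earlier results of these data known. Hexokinases, which phosphorylate glucose at the entry of all these routes, were not in the list. Of the 35 genes, 34 passed the filter on low counts and were tested, and Pgls did not.

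RNA was sequenced from 9 libraries, each made from 3 pooled embryos of the outbred ICR strain that had developed in culture to the 2-cell stage. A group with high glucose and ZGW serum (3 libraries) received glucose together with rat serum carrying the agent that the labels call ZGW. A high glucose group (3 libraries) received the glucose load alone, and a control group (3 libraries) neither. The glucose dose, the timing and whether the high glucose and control groups received drug-free rat serum are not stated in the labels, so a difference of ZGW serum from either includes any effect of serum itself. Matings and cultures are not named in the labels either, and p-values therefore rest on the spread between these pools of embryos.

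Glycolysis splits glucose into pyruvate with a gain of ATP. Side routes lead from its first intermediates to NADPH and ribose through the pentose phosphate pathway, and to UDP-N-acetylglucosamine, the sugar donor for glycosylation, through the hexosamine pathway. The cleaving mouse embryo lives on pyruvate and lactate and uses little glucose until the morula forms, while an excess of glucose can hold early cleavage back. Part of its RNA at the 2-cell stage is still maternal.

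Library totals ran from 11934924 to 16916343 counts, and control replicate 1 and ZGW serum replicate 3 lay farthest apart on principal component 1. Markers of the 2-cell embryo and of the oocyte were abundant in every library. Summed over 10 genes, the 2-cell markers held 4015 to 10381 CPM (counts relative to the TMM-scaled library total) with ZGW serum, 13020 to 19975 with high glucose and 8654 to 16184 in control. Oocyte markers, summed over 10 genes, held 6224 to 9734 CPM with ZGW serum, 4935 to 5836 with high glucose and 5481 to 5814 in control. Cumulus and granulosa markers (12 genes) summed to 4.89 to 9.07 CPM with ZGW serum, 5.83 to 13.2 with high glucose and 11.3 to 32.1 in control, with Fshr at 0 with ZGW serum and Ptx3 at 0 in control. Blood markers (8 genes) summed to 311 to 528 CPM with ZGW serum, 86.5 to 308 with high glucose and 249 to 369 in control. Markers of oviduct stroma and epithelium (13 genes) summed to 18.3 to 56.4 CPM with ZGW serum, 45.4 to 78.0 with high glucose and 81.0 to 169.8 in control. Between ZGW serum and high glucose, the sums did not overlap for 2-cell markers (lower with ZGW serum), oocyte markers and blood markers (both higher with ZGW serum). Between ZGW serum and control they did not overlap for oocyte markers (higher with ZGW serum), cumulus and granulosa markers and stroma and epithelium markers (both lower with ZGW serum), and between high glucose and control for stroma and epithelium markers (lower with high glucose). The part of these markers in the results that follow was not tested, and in pooled embryos fewer cells of a type and less RNA per cell cannot be told apart.

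Several of these enzymes have processed copies elsewhere in the genome, and their reads cannot always be assigned to one gene. By 50-base stretches of GENCODE transcripts, 15 of the 35 genes shared more than 10% of their sequence with transcripts of another gene, and 20 did not. The clearest cases are shown because the copy is letter for letter the same over 60 coding bases, given 5′ to 3′ on the coding strand, with the start codon in capitals where it is part of the stretch.
Gapdh (chr6:125163377-125163436, minus strand, GRCm38): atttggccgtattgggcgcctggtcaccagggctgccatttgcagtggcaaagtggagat
Gm7336 (chr7:51746720-51746779, plus strand): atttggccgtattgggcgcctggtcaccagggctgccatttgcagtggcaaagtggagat
Pgk1 (chrX:106187252-106187311, plus strand): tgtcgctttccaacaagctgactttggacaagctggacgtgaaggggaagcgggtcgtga
Pgk1-rs7 (chr12:10900181-10900240, minus strand): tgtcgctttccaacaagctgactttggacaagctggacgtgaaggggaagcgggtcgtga
Pgam1 (chr19:41912048-41912107, plus strand): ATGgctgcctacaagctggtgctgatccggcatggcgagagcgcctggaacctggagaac
Pgam1-ps2 (chr7:27470476-27470535, minus strand): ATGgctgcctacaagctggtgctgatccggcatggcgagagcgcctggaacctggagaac

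Of the 50-base stretches in the 999 coding bases of Gapdh, 100% occur in Gm7336. The share is 99.9% for the coding bases of Pgk1 in Pgk1-rs7 and 100% for those of Pgam1 in Pgam1-ps2. None of these copies had a row of its own in the count table. Over whole transcripts, the shared part was 78.3% for Gapdh, 68.0% for Pgk1, 57.2% for Eno1, 41.5% for Pgam1 and 36.3% for Pkm. It was 31.3% for Sord, with Gm6652, and 25.3% for Gpi1. Eno1b, a near copy of Eno1 with a row of its own, held 59.5% to 76.0% of the CPM of Eno1 in each library, and the split of reads between the pair is uncertain. Gm12070, a Gapdh copy, held 2.73% to 4.64% of the CPM of Gapdh. Overlap with a gene on the opposite strand made up most of the sharing of Gnpnat1 (88.5%, with Styx), Pgm3 (36.7%, with Dop1a), Rpe (18.7%, with Kansl1l) and Pfkp (16.3%, with Pitrm1). Without a stated strand setting, reads of these pairs cannot be told apart. Aldoc, Bpgm, Gfpt1 and Uap1 shared 0%.

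Levels of genes were compared with each other per length, as CPM per kilobase of median coding transcript, averaged over the 9 libraries. G6pdx led the set at 137.4 ± 41.6 CPM per kilobase (SD, n = 9). It encodes glucose-6-phosphate dehydrogenase, which commits glucose-6-phosphate to the pentose phosphate pathway and makes NADPH. Gapdh, the dehydrogenase of the middle of glycolysis, followed at 110.3 ± 29.9, Bpgm at 107.7 ± 39.6 and Gnpnat1 at 99.1 ± 34.3. Bpgm encodes bisphosphoglycerate mutase, best known for making 2,3-bisphosphoglycerate in red blood cells, and Gnpnat1 encodes the acetyltransferase of the hexosamine pathway. The ranges of mean ± SD of these 4 overlapped, and none reached that of the next gene, Aldoa, at 42.4 ± 14.3. The gene at the top differed by group (SD, n = 3 each). With high glucose G6pdx averaged 173.9 ± 42.7 and led. With ZGW serum Bpgm averaged 128.7 ± 42.7 and G6pdx 117.1 ± 40.4. In control G6pdx averaged 121.0 ± 21.0 and Gapdh 120.9 ± 23.6. At the other end of the means over 9 libraries, Eno2 stood at 0.360 ± 0.183 and Pgls at 0.289 ± 0.327 CPM per kilobase. The median of the 35 genes was 6.98 CPM per kilobase, against 3.59 over 14604 tested genes with a coding length. By the longest transcript Gnpnat1 would stand at 53.0 and Gfpt1 at 2.34 in place of 8.26.

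**Figure D1:**
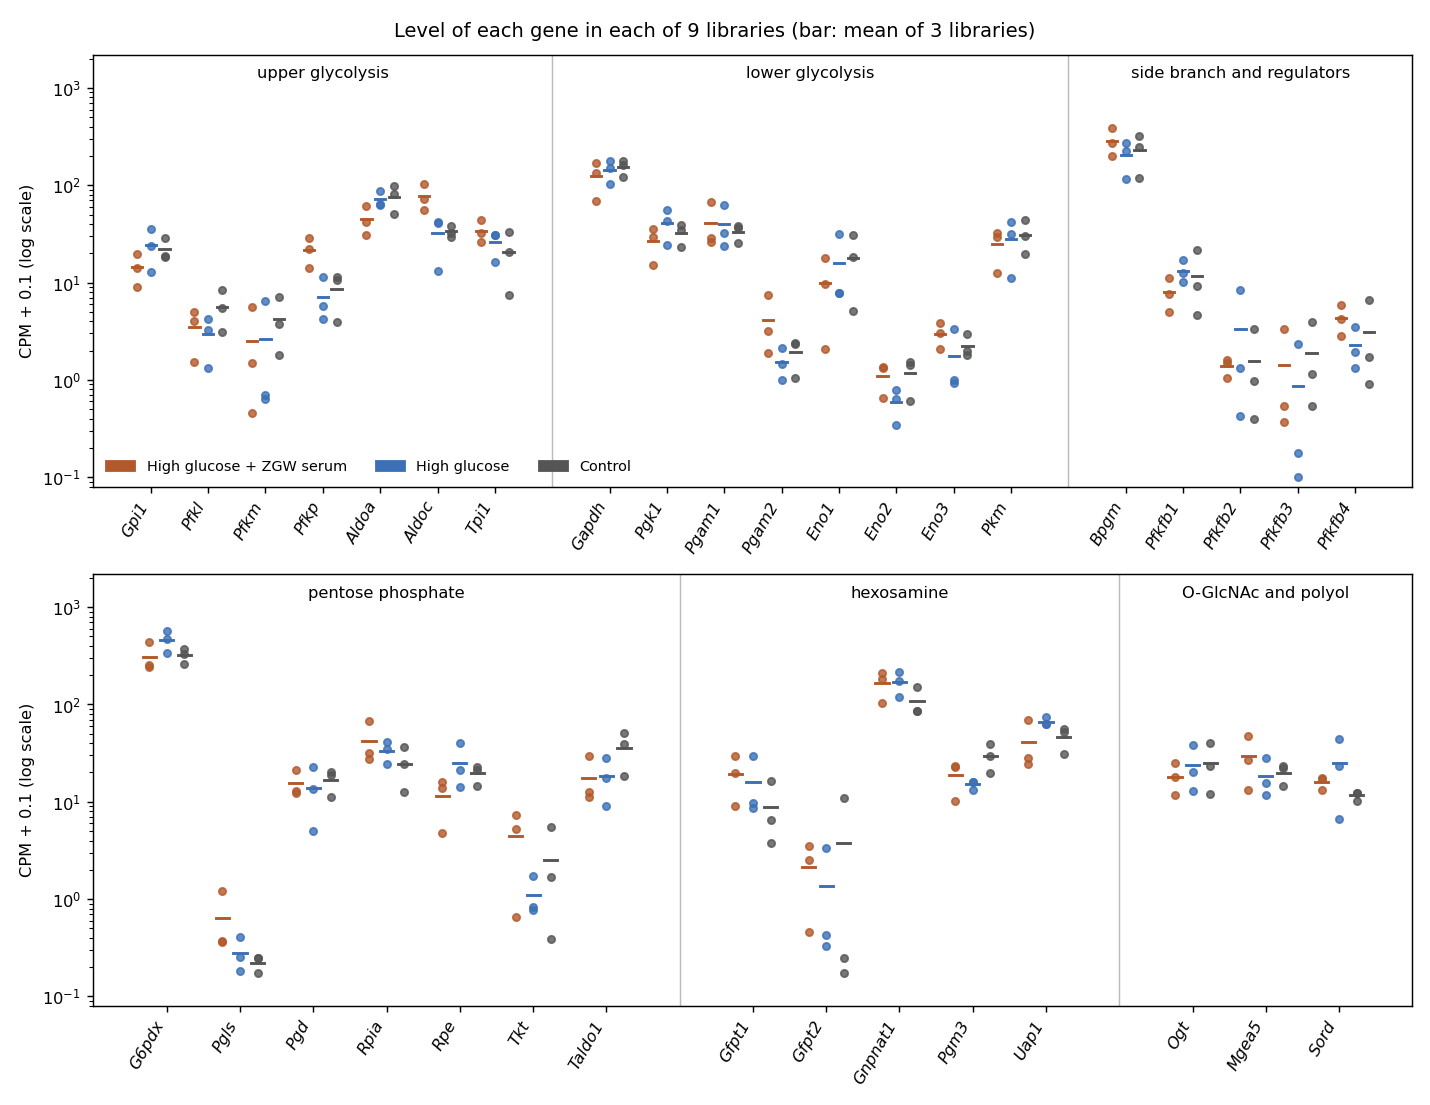
Level of each of the 35 genes in CPM plus 0.1 on a log axis, by role. Each point is 1 library and each bar a group mean, with ZGW serum left of high glucose and control. Within a group the libraries often span a wider range than the group means do, and Aldoc and Pfkp are the genes whose ZGW serum points lie above all others.

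In most isozyme families 1 gene held most of the signal per length, averaged over the 9 libraries. Pgam1, the phosphoglycerate mutase of most tissues, made up 87.9% of its pair and led in 9 of 9 libraries, with the muscle form Pgam2 behind. Gfpt1, the transaminase that opens the hexosamine pathway, made up 90.3% of its pair and led in 8 libraries; in control replicate 3, Gfpt2 was at 50.4%. Eno1 made up 71.4% of the enolases and led in 8 libraries, ahead of the muscle form Eno3 at 23.7% and the neuronal form Eno2 at 4.89%. Pfkp, the platelet type of phosphofructokinase, made up 61.3% of its family and led in 8 libraries, ahead of the liver type Pfkl at 20.7% and the muscle type Pfkm at 18.02%. The share of Pfkp was 66.7%, 82.4% and 87.7% with ZGW serum and 48.2%, 76.2% and 51.3% with high glucose. In control it was 29.4%, 39.5% and 70.2%, and the ranges of the groups overlapped. Among the bifunctional enzymes that set the level of fructose 2,6-bisphosphate, an activator of phosphofructokinase, Pfkfb1 made up 69.8% and led in 9 libraries.

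Among the aldolases, the share of Aldoc differed by group. Per length, Aldoa led in 7 libraries and Aldoc in 2, which were ZGW serum replicates 2 and 3. Aldoc, known as the brain aldolase, made up 44.1%, 62.1% and 55.3% of the aldolase signal per length with ZGW serum. The same share was 12.03%, 31.3% and 24.0% with high glucose and 19.7%, 18.4% and 33.7% in control. All 3 ZGW serum libraries were above all 6 others. As CPM, the ratio of Aldoc to Aldoa was 1.17, 2.44 and 1.84 with ZGW serum, 0.203, 0.676 and 0.469 with high glucose and 0.365, 0.335 and 0.754 in control. This ratio needs no scaling between libraries. On the log2 scale it averaged 0.80 ± 0.53 with ZGW serum and -1.32 ± 0.89 with high glucose (SD, n = 3 each), a difference of 2.12 with an exact permutation p of 0.1, two-sided. Against control, at -1.15 ± 0.64, the difference was 1.94, again with an exact permutation p of 0.1, which is the smallest that 3 against 3 can give. High glucose and control differed by -0.17 (exact permutation p = 0.9). The ratio was chosen after its values had been seen, and the exact permutation p-values do not account for that choice. They therefore cannot support the difference. Neither can Benjamini-Hochberg adjustment over the 3 comparisons, which gives 0.15 for both ZGW serum comparisons. Leaving out single libraries or both that stood apart kept the difference between 1.63 and 2.49 against high glucose and between 1.70 and 2.31 against control. Aldoa shared 11.2% of its stretches with other genes.

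**Figure D2:**
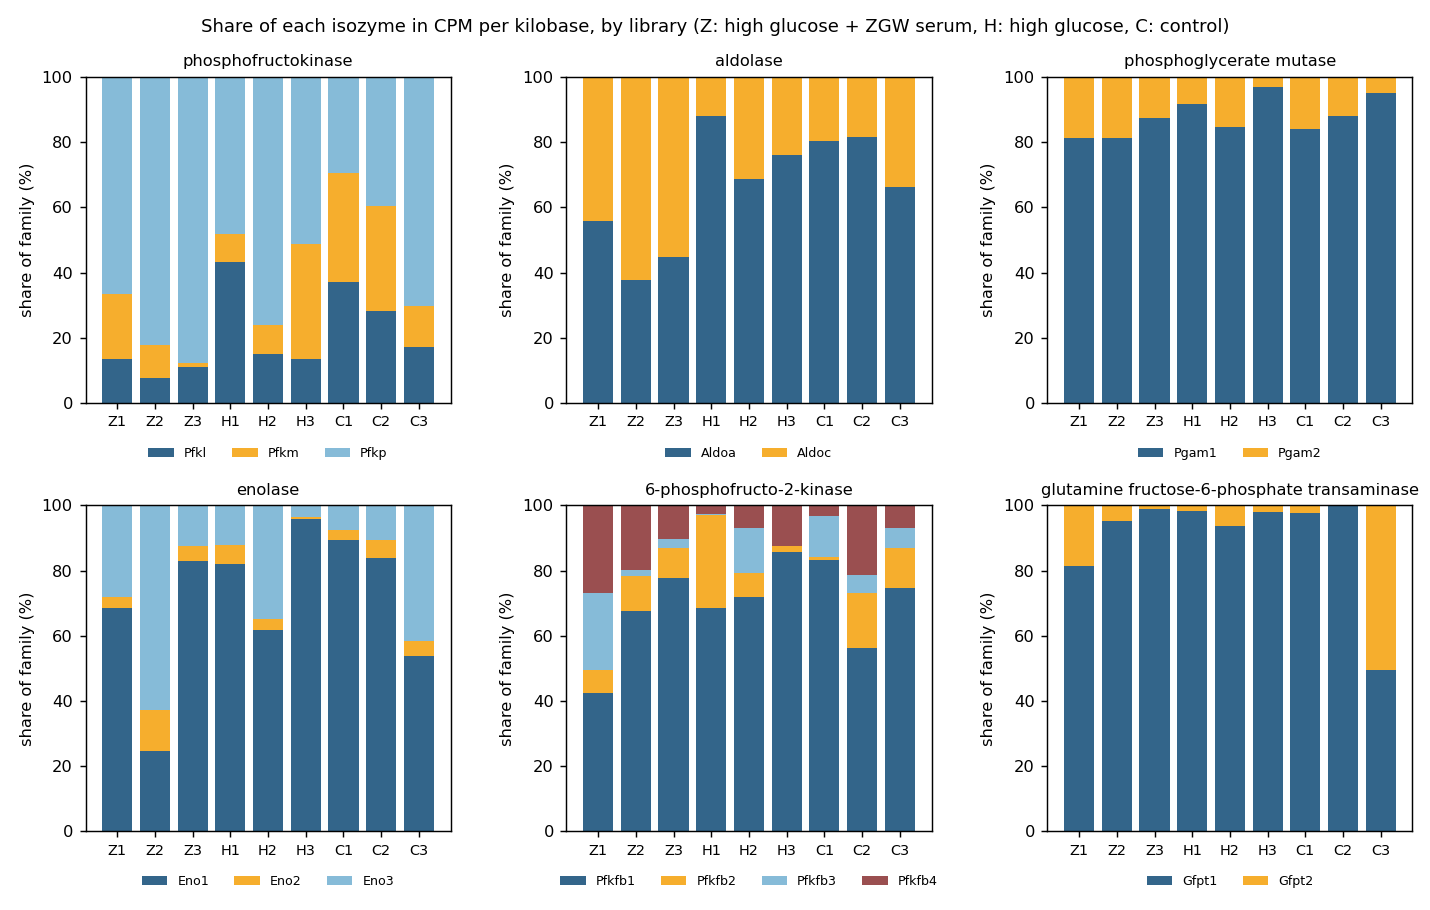
Share of each isozyme in its family, in percent of CPM per kilobase, for 6 families. Each stacked bar is 1 library, with ZGW serum (Z) left of high glucose (H) and control (C). Aldoc makes up 44.1% to 62.1% of the aldolase bars with ZGW serum and 12.03% to 33.7% in the other 6 libraries.

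High glucose embryos were set against control embryos to ask how the glucose load moved the enzymes that handle glucose. No enzyme passed the test: 0 of 34 were called by edgeR's quasi-likelihood test (Benjamini-Hochberg adjusted over all genes), beside a background of 0% of 16964 genes. At an unadjusted p under 0.05 there were 0 of 34 enzymes, beside 7.39% of all genes (3.88% higher and 3.5% lower). DESeq2 called 0 of 34, beside 1.15% of 17763 genes, and limma-voom called 0. The log2 fold change was above 0 for 13 of 34 enzymes, beside 49% of all genes, with a median of -0.10 over the enzymes and -0.02 over all genes. Without high glucose replicate 1 the median of the enzymes turned to 0.03. Groups did not overlap for 2 of 34, beside 13.7% of all genes. These were Uap1, higher with high glucose like 6.84% of all genes, and Pgm3, lower like 6.91%.

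The hexosamine enzymes differed among themselves in direction. Gfpt1 had 8.48, 29.2 and 9.54 CPM with high glucose and 3.65, 16.2 and 6.36 in control, a log2 fold change of 0.85 ± 0.74 (SE). Gnpnat1 had 217, 119 and 173 CPM with high glucose and 85.5, 153 and 86.5 in control. Its groups overlapped through high glucose replicate 2 and control replicate 2, and its log2 fold change was 0.65 ± 0.36 (adjusted p = 0.740, edgeR's quasi-likelihood test). Styx, on the opposite strand, had 23.2, 18.8 and 34.6 CPM with high glucose and 21.7, 10.7 and 22.4 in control.
Pgm3, the mutase that follows Gnpnat1 in the pathway, had 13.2, 15.9 and 15.99 CPM with high glucose and 29.3, 39.5 and 19.8 in control. Every high glucose library was below every control library, at a log2 fold change of -0.97 ± 0.47 (95% interval -2.0 to 0.05; adjusted p = 0.697, edgeR's quasi-likelihood test). Uap1, whose enzyme makes UDP-N-acetylglucosamine in the last step, had 63.6, 62.5 and 73.8 CPM with high glucose and 30.9, 52.6 and 56.4 in control. It thus lay in the other direction without overlap, at a log2 fold change of 0.51 ± 0.43 (adjusted p = 0.843, edgeR's quasi-likelihood test). Gfpt2 had 0.227, 3.23 and 0.326 CPM with high glucose and 0.146, 0.0746 and 10.7 in control, where 1 library held nearly all of the signal.

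Of the pentose phosphate enzymes, G6pdx had 476, 341 and 566 CPM with high glucose and 260.1, 369.6 and 333 in control. High glucose replicate 2 lay inside the control range. The log2 fold change was 0.52 ± 0.30 (95% interval -0.14 to 1.19; adjusted p = 0.750, edgeR's quasi-likelihood test), so a value near 0 and a doubling both lie in it. Taldo1, the transaldolase of the non-oxidative branch, had 8.85, 28.3 and 17.3 CPM with high glucose and 38.8, 50.5 and 18.2 in control. The groups met at high glucose replicate 2 and control replicate 3, with a log2 fold change of -0.98 ± 0.59 (adjusted p = 0.762, edgeR's quasi-likelihood test). Tkt, the transketolase of the same branch, was low throughout, with 0.681, 1.62 and 0.734 CPM with high glucose and 1.61, 5.44 and 0.292 in control.

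In glycolysis itself the abundant genes gave the narrowest intervals. Gapdh had 103, 149 and 179 CPM with high glucose and 179, 162 and 121 in control, a log2 fold change of -0.10 ± 0.36 (95% interval -0.89 to 0.69). Aldoa had 64.1, 62.5 and 87.7 CPM with high glucose and 81.1, 97.1 and 50.5 in control, a log2 fold change of -0.09 ± 0.36 (95% interval -0.88 to 0.69). These were the only 2 of 34 intervals within ±1. Pfkl had 4.09, 1.23 and 3.18 CPM with high glucose and 5.33, 8.20 and 3.00 in control, with overlap and a log2 fold change of -0.96 ± 0.83 (adjusted p = 0.849, edgeR's quasi-likelihood test). Sord encodes sorbitol dehydrogenase of the polyol route, by which cells can turn excess glucose into fructose. It had 44.4, 6.62 and 23.3 CPM with high glucose and 10.1, 12.2 and 12.3 in control. The high glucose libraries lay on both sides of the narrow control range, and the log2 fold change was 1.10 ± 0.61 (adjusted p = 0.737, edgeR's quasi-likelihood test). It was 0.38 without high glucose replicate 1 and 0.61 by limma-voom.

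**Figure D3:**
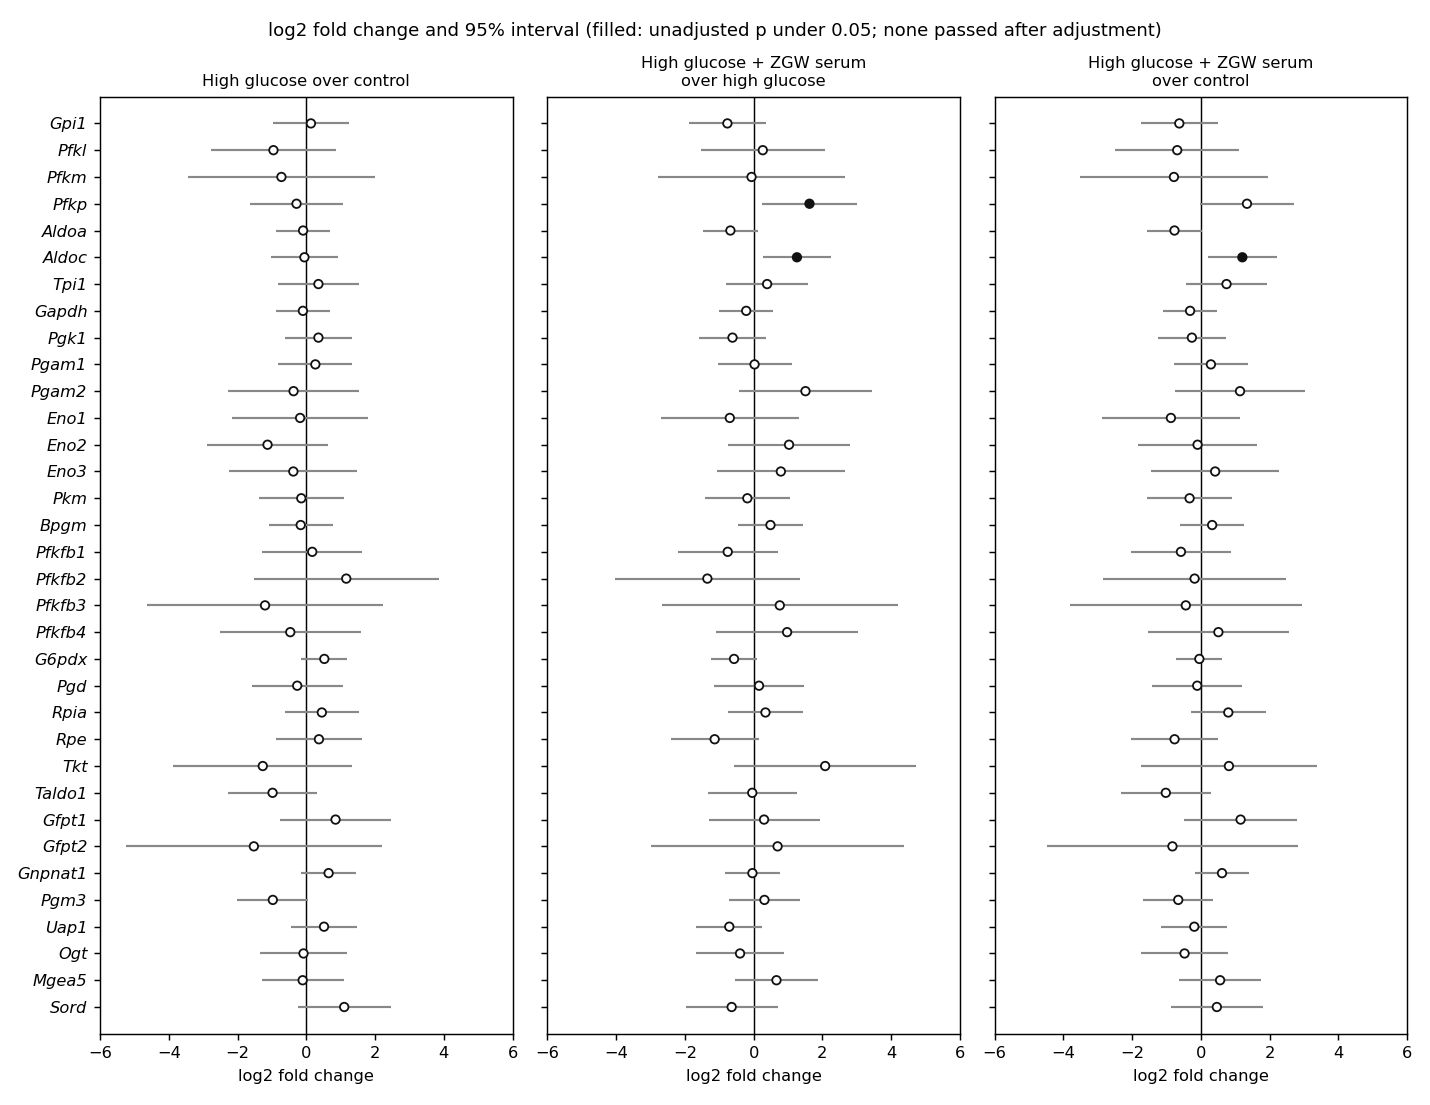
Log2 fold change of each of the 34 tested genes in the 3 comparisons, with 95% intervals from edgeR's fit. Nearly all intervals include 0, and those of Aldoc against high glucose and against control and of Pfkp against high glucose do not.

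ZGW serum embryos were set against high glucose embryos to ask what the serum did in glucose-loaded embryos. Here too 0 of 34 enzymes passed edgeR's quasi-likelihood test (Benjamini-Hochberg adjusted), beside 0% of all genes. At an unadjusted p under 0.05 there were 2 enzymes, Aldoc and Pfkp, beside 8.68% of all genes. Both were higher with ZGW serum, as were 3.8% of all genes, and 0 enzymes were lower, beside 4.89%. DESeq2 called 0 of 34, beside 1.91% of 16501 genes, and its lowest adjusted p among the enzymes was 0.143, for Pfkp. limma-voom called 0. The log2 fold change was above 0 for 18 of 34 enzymes, beside 50.1% of all genes, with a median of 0.09 over the enzymes and 0.00 over all genes. The median of the enzymes turned to -0.10 without ZGW serum replicate 1 and to -0.01 with a stricter filter. Groups did not overlap for 3 of 34, beside 17.3% of all genes. Aldoc and Pfkp were higher with ZGW serum, like 9.08% of all genes, and Aldoa was lower, like 8.26%.

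Aldoc, Pfkp and Aldoa belong to upper glycolysis, where sugar phosphates are prepared and split, but they did not share a direction. The other upper glycolysis genes, Gpi1, Pfkl, Pfkm and Tpi1, overlapped between these groups. At 3 of 34 beside 17.3% of all genes, the lack of overlap was not read as a result about this route. Pfkp had 22.2, 14.0 and 28.7 CPM with ZGW serum and 4.16, 5.70 and 11.2 with high glucose. Its log2 fold change was 1.62 ± 0.63 (95% interval 0.23 to 3.01; adjusted p = 0.533, edgeR's quasi-likelihood test). Phosphofructokinase catalyses the committed step of glycolysis. Pitrm1, which overlaps Pfkp on the opposite strand, had 7.40, 6.21 and 3.28 CPM with ZGW serum and 0.907, 10.5 and 3.83 with high glucose, and these values overlap.
Aldoc (chr11:78322968-78327781, plus strand, GRCm38) had 72.0, 102.5 and 56.2 CPM with ZGW serum and 13.0, 42.3 and 41.1 with high glucose. The lowest ZGW serum library was above the highest high glucose library, at a log2 fold change of 1.26 ± 0.45 (95% interval 0.26 to 2.26; adjusted p = 0.512, edgeR's quasi-likelihood test). Aldoa, the aldolase of most tissues, had 61.4, 42.1 and 30.6 CPM with ZGW serum and 64.1, 62.5 and 87.7 with high glucose. ZGW serum replicate 1 came close to the high glucose range without entering it, and the log2 fold change was -0.68 ± 0.36 (adjusted p = 0.630, edgeR's quasi-likelihood test). Without both libraries that lay apart, the log2 fold change over high glucose was 1.47 for Aldoc, 1.4 for Pfkp and -0.43 for Aldoa. The sums of oocyte and blood markers were higher and those of 2-cell markers lower with ZGW serum than with high glucose, without overlap, and their part in these values was not tested.

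The pentose phosphate enzymes were led by G6pdx, with 242, 255 and 434 CPM with ZGW serum and 476, 341 and 566 with high glucose. ZGW serum replicate 3 lay within the high glucose range, and the log2 fold change was -0.57 ± 0.30 (95% interval -1.24 to 0.10; adjusted p = 0.630, edgeR's quasi-likelihood test). Rpe, the epimerase of ribulose 5-phosphate, had 13.7, 4.63 and 15.9 CPM with ZGW serum and 21.2, 14.2 and 39.8 with high glucose, with overlap and a log2 fold change of -1.13 ± 0.58 (adjusted p = 0.615, edgeR's quasi-likelihood test). It was -0.64 without high glucose replicate 3 and -0.75 without ZGW serum replicate 2. Kansl1l, which overlaps Rpe on the opposite strand, had 34.7, 37.9 and 71.7 CPM with ZGW serum and 73.5, 48.7 and 57.5 with high glucose. Tkt had 0.553, 5.16 and 7.20 CPM with ZGW serum and 0.681, 1.62 and 0.734 with high glucose; its log2 fold change of 2.08 ± 1.2 came with an interval from -0.57 to 4.73. Rpia, which makes ribose 5-phosphate, had 31.7, 67.7 and 27.7 CPM with ZGW serum and 24.1, 41.2 and 34.99 with high glucose, and Pgd, the second NADPH-making enzyme, had 21.1, 12.9 and 12.1 CPM with ZGW serum and 22.9, 4.93 and 13.5 with high glucose. Both overlapped.

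Gnpnat1 had 181, 105 and 211 CPM with ZGW serum and 217, 119 and 173 with high glucose, and its interval, -0.83 to 0.76, was the only 1 of 34 within ±1. Mgea5, which encodes the enzyme that takes O-linked N-acetylglucosamine off proteins, had 13.2, 27.0 and 47.7 CPM with ZGW serum and 11.7, 28.2 and 15.5 with high glucose. The high value was that of ZGW serum replicate 3, and the log2 fold change was 0.66 ± 0.54 (adjusted p = 0.781, edgeR's quasi-likelihood test). It was 0.15 without ZGW serum replicate 3 and 1.01 without ZGW serum replicate 1. Ogt, which puts the sugar on, had 17.7, 11.6 and 24.9 CPM with ZGW serum and 12.7, 38.3 and 20.1 with high glucose. Pgm3 had 10.1, 23.1 and 22.8 CPM with ZGW serum, on both sides of the high glucose range. Bpgm had 270.4, 199.7 and 387 CPM with ZGW serum and 115, 225 and 270.0 with high glucose, with overlap and a log2 fold change of 0.49 ± 0.42. Red blood cells are rich in this enzyme, and the part of the blood markers, at 311 to 528 CPM with ZGW serum and 86.5 to 308 with high glucose, was not tested. Uap1 had 28.2, 69.8 and 24.2 CPM with ZGW serum and 63.6, 62.5 and 73.8 with high glucose, where ZGW serum replicate 2 lay within the high glucose range and the others well below it.

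ZGW serum was then compared with control to place the treated embryos against unloaded ones. This comparison shares its libraries with the other comparisons, so that the values are given side by side and not as independent evidence. Of 34 enzymes, edgeR's quasi-likelihood test (Benjamini-Hochberg adjusted) called 0, beside 0% of all genes. At an unadjusted p under 0.05 there was 1 enzyme, Aldoc, beside 9.86% of all genes (4.21% higher and 5.65% lower). DESeq2 called 0 of 34, beside 2.76% of 16501 genes, with a lowest adjusted p of 0.179 for Aldoc, and limma-voom called 0. The log2 fold change was above 0 for 14 of 34 enzymes, beside 50% of all genes, with a median of -0.15 over the enzymes and 0.00 over all genes. This median turned to 0.02 without control replicate 1 and to 0.03 without control replicate 2. Groups did not overlap for 3 of 34, Aldoc, Pfkp and Sord, all higher with ZGW serum, beside 16.3% of all genes. Those higher were 9.02% of all genes, and those lower were 7.3%, beside 0 enzymes.

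Aldoc had 72.0, 102.5 and 56.2 CPM with ZGW serum and 29.6, 32.5 and 38.1 in control. The control libraries kept close together, and the log2 fold change was 1.2 ± 0.45 (95% interval 0.21 to 2.20; adjusted p = 0.448, edgeR's quasi-likelihood test). Pfkp had 22.2, 14.0 and 28.7 CPM with ZGW serum and 3.87, 10.5 and 11.3 in control, a log2 fold change of 1.34 ± 0.62 (95% interval -0.04 to 2.72; adjusted p = 0.518, edgeR's quasi-likelihood test). Aldoa, with 61.4, 42.1 and 30.6 CPM with ZGW serum and 81.1, 97.1 and 50.5 in control, overlapped through control replicate 3 and gave -0.77 ± 0.36 (adjusted p = 0.518, edgeR's quasi-likelihood test). Sord had 17.3, 17.2 and 13.2 CPM with ZGW serum and 10.1, 12.2 and 12.3 in control, a log2 fold change of 0.46 ± 0.61. Without both libraries that lay apart, the log2 fold change over control was 1.33 for Aldoc, 0.76 ± 0.70 for Pfkp and -0.49 for Aldoa.

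Among the side routes, Taldo1 had 29.3, 12.5 and 11.1 CPM with ZGW serum and 38.8, 50.5 and 18.2 in control. The ranges overlapped, and the log2 fold change was -1.02 ± 0.59 (adjusted p = 0.596, edgeR's quasi-likelihood test), beside -0.98 for high glucose over control. Pgm3 gave -0.66 ± 0.46 (adjusted p = 0.672) and Gnpnat1 0.61 ± 0.36 (adjusted p = 0.605) by edgeR's quasi-likelihood test, beside -0.97 and 0.65 for high glucose over control. G6pdx had 242, 255 and 434 CPM with ZGW serum and 260.1, 369.6 and 333 in control. Its log2 fold change of -0.05 ± 0.30 had the only interval of 34 within ±1, from -0.71 to 0.62. Gfpt1 had 9.0, 29.5 and 19.7 CPM with ZGW serum and 3.65, 16.2 and 6.36 in control, with overlap and a log2 fold change of 1.15 ± 0.74.

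The other genes of the set are accounted for by their levels, and all of them except Pgls overlapped between the groups in each comparison. In upper glycolysis, Gpi1, the isomerase of glucose 6-phosphate, averaged 14.2 ± 5.38 CPM with ZGW serum, 24.2 ± 11.5 with high glucose and 22.01 ± 5.97 in control (SD, n = 3 each). Tpi1, which interconverts the triose phosphates, averaged 34.0 ± 8.90 CPM with ZGW serum, 25.9 ± 8.32 with high glucose and 20.3 ± 12.8 in control. Pfkm averaged 2.39 ± 2.69 CPM with ZGW serum, 2.50 ± 3.34 with high glucose and 4.14 ± 2.73 in control. In each of these the SD over libraries was a large part of the mean. Among genes described above without their control values, Rpe had 21.0, 14.5 and 22.7 CPM in control, Rpia 12.6, 24.2 and 36.5, and Pgd 18.5, 11.03 and 20.1. Ogt had 40.3, 11.9 and 23.2 CPM in control, Mgea5 22.3, 14.3 and 23.1, and Bpgm 119, 246 and 319, and all of these overlapped both other groups.
In lower glycolysis, where ATP is made, Pgk1 averaged 26.8 ± 10.5 CPM with ZGW serum, 41.0 ± 15.8 with high glucose and 32.1 ± 8.18 in control. Pkm, pyruvate kinase, averaged 24.7 ± 10.6 CPM with ZGW serum, 28.0 ± 15.5 with high glucose and 31.0 ± 12.1 in control. Eno1 ran from 1.97 to 17.7 CPM with ZGW serum, from 7.64 to 31.8 with high glucose and from 4.97 to 30.4 in control. Pgam1 averaged 40.4 ± 22.8 CPM with ZGW serum, 39.7 ± 20.9 with high glucose and 33.1 ± 6.83 in control. The minor forms Pgam2, Eno2 and Eno3 stayed under 8 CPM in every library.
Among the regulators of fructose 2,6-bisphosphate, Pfkfb1 averaged 7.82 ± 3.07 CPM with ZGW serum, 13.2 ± 3.55 with high glucose and 11.7 ± 8.80 in control. Pfkfb2, Pfkfb3 and Pfkfb4 were lower, with group means between 0.769 and 4.25 CPM, and Pfkfb3 had 0 counts in high glucose replicate 3. Pgls, the lactonase of the pentose phosphate pathway and the untested gene, had 14, 5 and 3 counts with ZGW serum, 2, 4 and 1 with high glucose and 1, 2 and 2 in control. The ZGW serum counts lay above the control counts and overlapped those of high glucose, and the gene was too low to be tested.

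Summed over all 35 genes, the set held 1256 to 1742 CPM with ZGW serum, 1382 to 1834 with high glucose and 1211 to 1540 in control, which was 0.118% to 0.179% of all counts. The means were 1443 ± 262 CPM with ZGW serum, 1549 ± 248 with high glucose and 1362 ± 166 in control (SD, n = 3 each), and all 3 ranges overlapped. Summed by role, the pentose phosphate genes averaged 402 ± 92.5 CPM with ZGW serum, 553 ± 120 with high glucose and 419.8 ± 62.1 in control, mostly through G6pdx. The hexosamine genes averaged 246 ± 27.5 CPM with ZGW serum, 268 ± 36.7 with high glucose and 197 ± 57.7 in control, mostly through Gnpnat1. Upper glycolysis averaged 197 ± 12.3 CPM with ZGW serum, 166 ± 35.9 with high glucose and 170.2 ± 34.98 in control. In this sum, Aldoa values that were lower with ZGW serum than with high glucose stand beside Aldoc and Pfkp values that were higher.

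**Figure D4:**
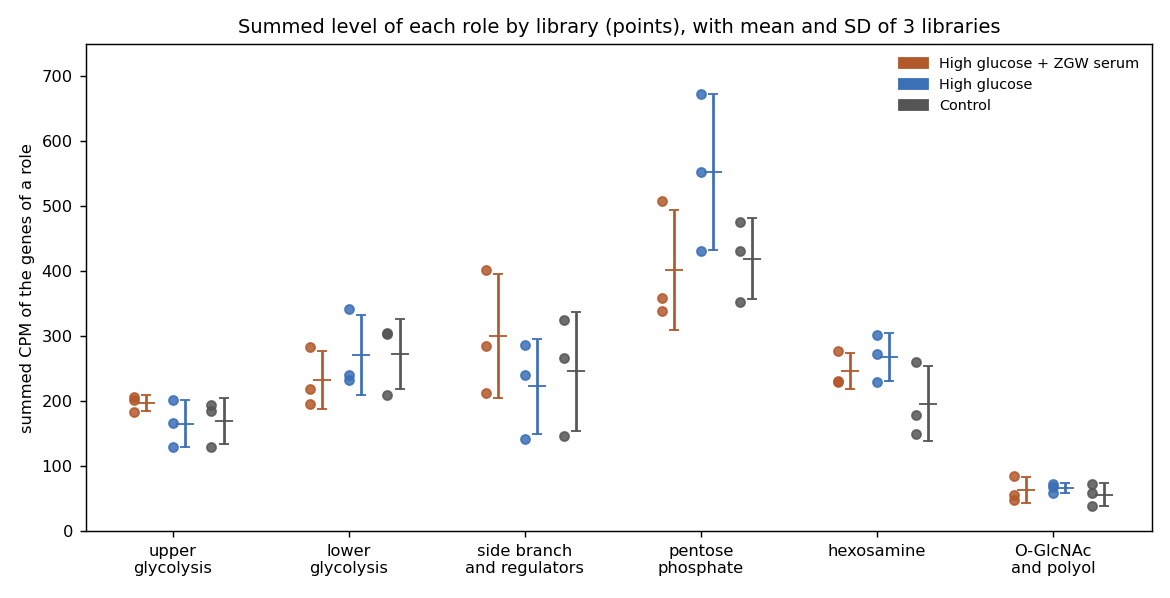
Summed CPM of the genes of each role, with 1 point per library and bars for the mean ± SD of 3 libraries, ZGW serum left of high glucose and control. The pentose phosphate sums average 553 CPM with high glucose, against 402 with ZGW serum and 419.8 in control, and the ranges of the groups overlap.

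The median enzyme varied less between libraries of a group than the median gene did, though some enzymes varied more. The median SD of log2 CPM within groups was 0.729 over the 34 tested enzymes and 0.814 over all genes, and the median coefficient of biological variation was 0.514 over the enzymes and 0.679 over all genes. The steadiest were G6pdx at 0.290, Gapdh at 0.333, Gnpnat1 at 0.335 and Aldoa at 0.336. The least steady were Gfpt2 at 1.31 and Pfkfb3 at 1.25. The enzymes were also more abundant, with a median mean level of 19.4 CPM against 7.56 over all genes. For high glucose over control, the log2 fold change had a median SE of 0.58 for the enzymes and 0.78 for all genes.

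Profiles across the 9 libraries, which share the 3 groups and differ in depth, were compared only among the 34 tested enzymes. The profile most like that of Gapdh was that of Eno1 (Spearman's rho 0.95, Pearson's r 0.922), followed by Gpi1 (rho 0.933, r 0.885). All 3 shared more than 10% of their stretches with other genes. The profiles most like Pfkp were those of Aldoc (rho 0.80, r 0.725) and Bpgm (rho 0.783, r 0.843). The profiles most like G6pdx were those of Rpe (rho 0.667, r 0.635) and Pfkfb1 (rho 0.533, r 0.367). For Gfpt1 they were Aldoc (rho 0.683, r 0.487) and Tkt (rho 0.683, r 0.625). These correlations describe 9 libraries and were not tested.

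A second list held 36 enzymes that border these routes, such as those of gluconeogenesis, lactate, nucleotide sugar and sialic acid metabolism. It too was chosen with earlier results of these data known. Of the 36, 35 were in the table and 30 were tested. Of the 30, edgeR's quasi-likelihood test (Benjamini-Hochberg adjusted) called 0 in each comparison. At an unadjusted p under 0.05 there were 3 between high glucose and control, 3 between ZGW serum and high glucose and 4 between ZGW serum and control, beside 7.39%, 8.68% and 9.86% of all genes. Fbp1, the fructose bisphosphatase that opposes phosphofructokinase in gluconeogenesis, had 20.4, 13.7 and 20.8 CPM with ZGW serum, 63.3, 50.2 and 67.8 with high glucose and 30.4, 3.35 and 17.1 in control. All 3 high glucose libraries were above the 6 others. The log2 fold change was 1.83 ± 0.63 for high glucose over control (adjusted p = 0.627) and -1.73 ± 0.63 for ZGW serum over high glucose (adjusted p = 0.512) by edgeR's quasi-likelihood test, 2 values that share the high glucose libraries.
Tigar, whose enzyme lowers fructose 2,6-bisphosphate, had 34.6, 30.5 and 51.7 CPM with ZGW serum, 15.3, 37.0 and 30.4 with high glucose and 57.2, 40.3 and 56.5 in control. High glucose lay below control without overlap (log2 fold change -0.90 ± 0.41, adjusted p = 0.676, edgeR's quasi-likelihood test), and ZGW serum over high glucose gave 0.50 ± 0.40. Cmas, which activates sialic acid, had 60.1, 61.4 and 120.2 CPM with ZGW serum, 36.6, 35.03 and 32.6 with high glucose and 34.95, 40.0 and 34.4 in control. All 3 ZGW serum libraries were above the 6 others. Cmas gave a log2 fold change of 1.21 ± 0.34 over high glucose (adjusted p = 0.445, edgeR's quasi-likelihood test). DESeq2 called it there at an adjusted p of 0.0432 with 1.18 ± 0.35. This was 1 of 30 neighbouring enzymes, beside 1.91% of 16501 genes. Over control Cmas gave 1.14 ± 0.34 (adjusted p = 0.402, edgeR's quasi-likelihood test), and DESeq2 called 0 of 30, beside 2.76% of 16501 genes.
Nans, the sialic acid synthase upstream of Cmas, lay the other way, with 9.71, 4.25 and 7.29 CPM with ZGW serum, 16.4, 51.7 and 4.98 with high glucose and 54.8, 47.0 and 14.1 in control. Its log2 fold change was -1.78 ± 0.80 over high glucose (adjusted p = 0.574) and -2.45 ± 0.82 over control (adjusted p = 0.413) by edgeR's quasi-likelihood test. Prps1, which makes phosphoribosyl pyrophosphate from ribose 5-phosphate, had 154, 255 and 103 CPM with ZGW serum, 212, 304 and 325 with high glucose and 330.5, 338 and 390.0 in control. Every control library was above the 6 others. ZGW serum over control gave a log2 fold change of -1.05 ± 0.33 (adjusted p = 0.409, edgeR's quasi-likelihood test). Gne, which starts sialic acid synthesis, had 15.4, 1.65 and 15.3 CPM with ZGW serum and 9.31, 4.08 and 6.93 with high glucose. In control it had 1.53, 4.32 and 3.51 CPM, which overlapped both other groups. Its log2 fold change was 1.78 ± 0.88 for ZGW serum over control (adjusted p = 0.534, edgeR's quasi-likelihood test). High glucose over control gave 1.12 ± 0.86 (adjusted p = 0.821, edgeR's quasi-likelihood test). Gnpda1, which returns glucosamine 6-phosphate to glycolysis, had 0.0757, 0.308 and 0.816 CPM with high glucose and 1.17, 1.04 and 17.7 in control, and its log2 fold change of -4.03 ± 1.53 (adjusted p = 0.627, edgeR's quasi-likelihood test) came with a control mean that was mostly control replicate 3.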

How the data were processed

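Whole-number read counts for each gene symbol, as the authors deposited them without normalisation, were the starting point for all 9 libraries. Per the submitters' processing notes, Trim Galore was used and the build was mm10. Aligner, counter, annotation, strand setting and the treatment of reads with several matches were not given in the sources used here. From these counts, CPM was computed relative to library totals scaled with TMM factors.

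The test took all 9 libraries with edgeR's quasi-likelihood test (edgeR 4.0.16, limma 3.58.1, R 4.3.3), 1 mean per group, robust dispersions and genes kept by edgeR's filter (minimum count 10). P-values were adjusted by Benjamini-Hochberg over 16964 genes, at a threshold of 0.05. Intervals are at 95% and standard errors come from the same fit. The code was tested on simulated data. Library totals ran from 11934924 to 16916343 counts. Precision is that of 3 libraries a group, and floors and intervals do not cover PCR duplication.

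The genes and lists were chosen with earlier results of these data known. In each comparison the 3 genes of lowest p-value in each direction with a mean of at least 5 CPM in 1 of the groups were described in full, and for the neighbouring enzymes the first 2 in each direction. Genes of the main set whose groups did not overlap were described as well, and the ratio of the aldolases was chosen after its values were seen. Transcript lengths are medians over the coding transcripts of GENCODE's basic set on GRCm38, the assembly that mm10 names. Sharing counts the 50-base stretches of a gene found in the transcripts of any other, as a percent, with a limit of 10%.

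Alternatives were RLE size factors, DESeq2 1.42.0 on all genes with its own filtering, limma-voom with quality weights, no filter, a stricter one (10 counts in 6 libraries), the replicate number as a block, fits restricted to the 2 groups of a comparison, leaving out each library, leaving out both libraries that stood apart, and the longest transcript as the length. Libraries with the same replicate number had correlations of their deviations from the group means from -0.0065 to 0.104, so the numbers were not taken to pair the libraries. For the aldolase ratio, leaving out libraries was added after the data were seen.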

Additional observations from a re-analysis of the deposited data

How the results depend on the processing

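edgeR's quasi-likelihood test and its alternatives called 0 enzymes in all 51 combinations of comparison and alternative, with 30 to 35 enzymes tested in each. The 18 gene results described in full kept their direction and their side of the threshold in all 306 alternatives. The lowest adjusted p among them was 0.143, for Pfkp between ZGW serum and high glucose by DESeq2. These results were picked for low p-values in the same data, which favours a steady direction. Some alternatives also left out only a library of the group not compared. The agreement is therefore not separate support. Counts over all genes moved: DESeq2 called 204 genes between high glucose and control, 315 between ZGW serum and high glucose and 455 between ZGW serum and control, where edgeR called 0 in each. Between ZGW serum and control, 1 gene was called without a filter, 1 with the stricter filter and 1 by limma-voom. The cause was not tested. Leaving out 1 library at a time gave counts from 0 to 0 over all genes. The median log2 fold change of the enzymes between ZGW serum and high glucose ran from -0.10 to 0.19 when 1 library was left out, and was -0.10 without ZGW serum replicate 1. In the same fits it ran from -0.26 to 0.03 between high glucose and control and from -0.18 to 0.03 between ZGW serum and control. Single gene values moved by more than 1.5 times in some of these fits: Mgea5 ran from 0.15 to 1.10 between ZGW serum and high glucose, and Sord from 0.38 to 1.53 between high glucose and control. The difference in the log2 ratio of Aldoc to Aldoa ran from 1.63 to 2.49 between ZGW serum and high glucose, from 1.70 to 2.31 between ZGW serum and control, and from -0.55 to 0.32 between high glucose and control. With the replicate block, 0 genes and 0 enzymes were called in each comparison. By the longest transcript, Gnpnat1 stood at 53.0 CPM per kilobase and Gfpt1 at 2.34, and the other 33 levels moved by less than 1 SD over libraries.

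Over the enzymes, log2 fold changes had a median standard error of 0.58, and 2, 1 and 1 of 34 intervals lay within ±1 between high glucose and control, ZGW serum and high glucose, and ZGW serum and control. The other intervals include a change by a factor of 2 in at least 1 direction. Reads shared with copies or with opposite-strand genes cannot be assigned from these counts, which touches Gapdh, Pgk1, Eno1, Pgam1 and Gnpnat1 most.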
